A study of Mus musculus with 7 samples.

Results

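The chemokine system of brown fat, a depot that burns lipid to make heat, was examined in 68 of the 55487 genes of the deposited table. Members were the protein-coding genes whose symbols begin with Ccl, Cxcl, Cx3cl, Xcl, Ccr, Cxcr, Cx3cr, Xcr or Ackr followed by a digit, a choice by name that used no measured value. They comprised 45 ligand and 23 receptor genes under 62 symbols, because Ccl19, Ccl21a, Ccl21b and Ccl27a each have more than 1 gene identifier. The naming rule, and the pathway and marker lists used below, were set with earlier results of these data known. The tissue came from 7 NOD/ShiLtJ mice, a strain with spontaneous autoimmune diabetes, whose blood glucose lay between 190 and 230 mg/dL. The CB-100 group (4 mice) was given the fraction above 100 kDa of buffer conditioned by brown adipocytes (imBAT in the labels), under the skin for 7 days at 1.5 mg per kg. The sham group (3 mice) was given KRBH buffer, with no schedule of its own in the labels. RNA was taken 2 to 8 weeks later, and neither the week nor the age of each mouse is given. The titles also mark every CB-100 sample nd and every sham sample d without explaining the marks, so the injection and whatever they stand for cannot be told apart. No source says what else the replicates share, so p-values measure only the spread between these samples.

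Chemokines are small secreted proteins that bind G protein-coupled receptors and guide the movement of leukocytes. They are named for the spacing of conserved cysteines (CC, CXC, CX3C and XC), and the atypical receptors (Ackr) bind chemokines without G protein signalling and remove or transport them. In fat, Ccl2 and its receptor Ccr2 recruit monocytes, while Cxcl12, Ccl19, Ccl21 and Cxcl13 maintain lymphoid organisation. Cxcl13 draws B cells through Cxcr5, and Cxcl14 is secreted by brown adipocytes among other cells.

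Library totals ran from 10815073 to 28528421 counts. CB-100 replicate 4 had the most counts, the smallest scaling factor (0.755, against 0.954 to 1.25 in the other 6) and the largest share of mitochondrially encoded counts (36.3%, against 14.3% to 25.3%). Xist and 4 Y-linked genes showed 1 male per group, replicate 3 in each. The summed level of 10 brown adipocyte markers, Ucp1 included, was 1235 to 3517 CPM (counts relative to the scaled library total) in CB-100 and 1145 to 2152 CPM in sham. Levels are CPM throughout, and a log2 change is CB-100 over sham.

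Of the 68 genes, 29 passed the filter on low counts and were tested, 17 ligands and 12 receptors. A single member, Cxcl13, passed the quasi-likelihood test of edgeR, with a Benjamini-Hochberg adjusted p under 0.05, over all 16823 genes tested, and it was lower in CB-100. That is 3.45% of the tested members, beside 3.70% of all tested genes called in either direction (2.28% lower and 1.42% higher in CB-100), so the number of calls was near the background. No member was called higher in edgeR, where 7 had an estimate above 0 with an unadjusted p under 0.05. DESeq2 called 4 members higher and 1 lower (17.2% of the tested members, beside 11.7% of all genes), and limma voom 2 higher and 1 lower (10.3%, beside 7.21%). At an unadjusted p under 0.05 in edgeR stood 8 of the 29 members (27.6%), beside 23.9% of all tested genes. The 4 CB-100 libraries and the 3 sham libraries did not overlap for 4 of the 29 members (13.8%), beside 23.3% of all tested genes. CB-100 lay above for 3 members (background 11.1%) and below for 1 (background 12.2%). Estimates were above 0 for 19 members (65.5%), beside 52.7% of all tested genes, with a median log2 change of 0.31 over the members and 0.03 over all tested genes. The plot of changes by role shows Cxcl13 alone as a call.

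**Figure D1:**
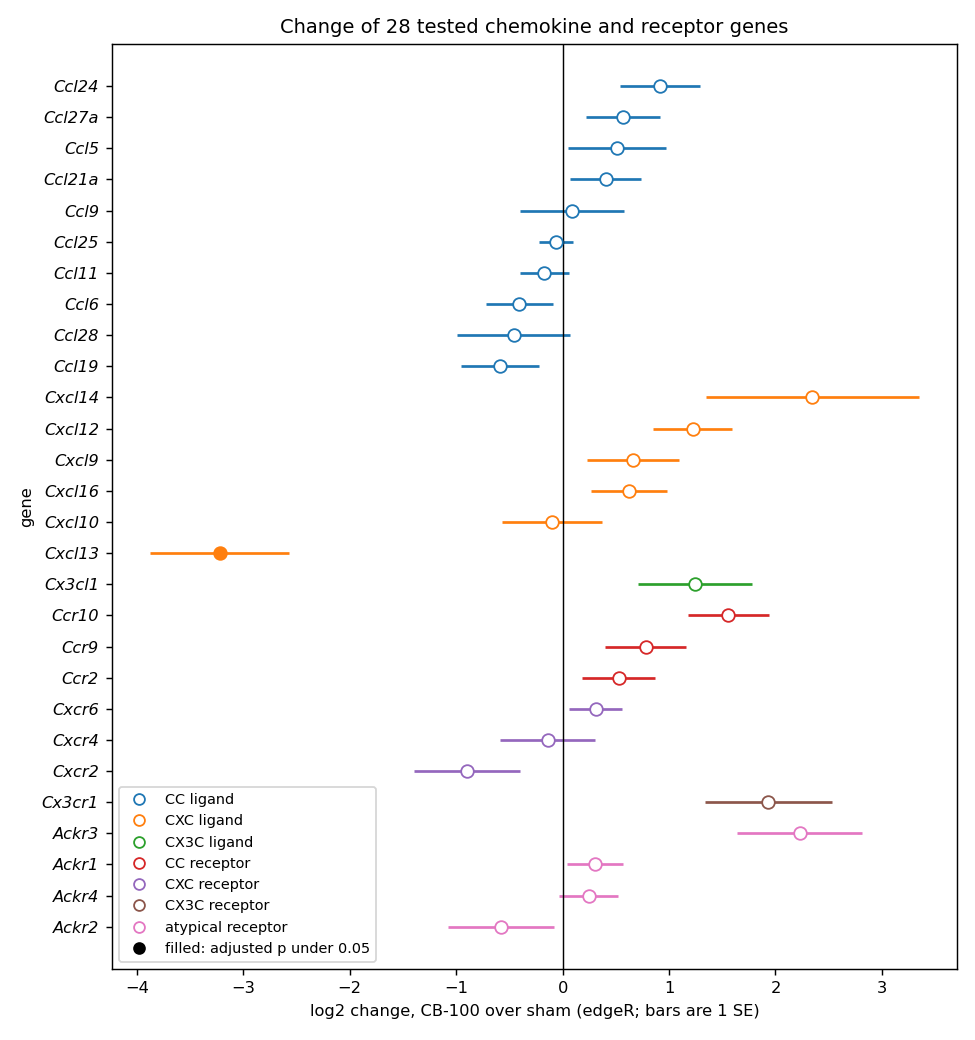
Log2 change of 28 of the 29 tested genes (points) with 1 SE (bars), coloured by role, CB-100 (4 mice) over sham (3 mice). Cxcl13 is the 1 filled point, at -3.22, while Cxcl14, Ackr3 and Cx3cr1 have the highest estimates (2.35, 2.23 and 1.93) without passing the test.

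Cxcl13, the ligand that gathers B cells into follicles, was nearly absent from brown fat of CB-100 mice and low but present in sham. Its counts were 2, 9, 12 and 2 in CB-100 replicates 1 to 4 and 92, 36 and 115 in sham replicates 1 to 3. As CPM these were 0.143, 0.822, 0.863 and 0.0930 in CB-100, and 4.79, 2.47 and 5.41 in sham. The highest CB-100 library thus lay below the lowest sham library. The mean was 0.480 ± 0.419 CPM (SD, n = 4) against 4.22 ± 1.55 CPM (SD, n = 3). The log2 change was -3.22 (SE 0.65, edgeR adjusted p = 0.038), a 9.33-fold lower level. In bulk tissue, fewer cells that express a gene and less RNA per cell cannot be told apart. Only 2 of the 4 CB-100 libraries reached the filter level of 0.674 CPM (on unscaled totals), against 3 of 3 in sham, so the gene was kept mainly through the group in which it was high.

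The direction of Cxcl13 held without each library in turn, with log2 changes of -3.76 to -2.81, as the separation of the groups fixes beforehand. Its call did not. Without CB-100 replicate 1, 2 or 3 the edgeR adjusted p was 0.074, 0.070 and 0.051. Without sham replicate 1, 2 or 3 it was 0.10, 0.051 and 0.15, and without CB-100 replicate 4 it was 0.038. In the females alone (3 CB-100, 2 sham) the log2 change was -3.53 with an edgeR adjusted p of 0.18, where 0 of all genes were called and 2578 had an unadjusted p under 0.05.

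The gene lies at chr5:95956951-95961068 on the plus strand of GRCm38, and no other annotated exon overlaps it. For the member that carries the call, and for Ackr3 and Cxcl12, the next of the members by p with an entry, the 250 bases before the RefSeq start (GRCm38.p6) are shown. Capitals mark exact matches, on either strand, to 3 short promoter elements: the TATA box, spelled TATAAA here, then the box named CCAAT, and the GC box, spelled GGGCGG. Matches were taken at any position in the window, and whether they act as promoter elements was not tested. The windows are chr5:95956689-95956938, chr1:90203730-90203979 and chr6:117168285-117168534, all on the plus strand.
Cxcl13: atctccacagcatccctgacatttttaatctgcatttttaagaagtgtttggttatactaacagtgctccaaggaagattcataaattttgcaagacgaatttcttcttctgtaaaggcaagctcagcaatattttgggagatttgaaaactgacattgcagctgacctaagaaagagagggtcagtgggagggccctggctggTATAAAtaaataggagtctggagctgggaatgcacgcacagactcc
Ackr3: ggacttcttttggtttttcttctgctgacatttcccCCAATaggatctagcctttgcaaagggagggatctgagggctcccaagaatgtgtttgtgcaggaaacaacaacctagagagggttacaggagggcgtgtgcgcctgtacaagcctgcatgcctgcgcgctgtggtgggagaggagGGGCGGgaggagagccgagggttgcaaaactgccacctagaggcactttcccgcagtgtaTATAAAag
Cxcl12: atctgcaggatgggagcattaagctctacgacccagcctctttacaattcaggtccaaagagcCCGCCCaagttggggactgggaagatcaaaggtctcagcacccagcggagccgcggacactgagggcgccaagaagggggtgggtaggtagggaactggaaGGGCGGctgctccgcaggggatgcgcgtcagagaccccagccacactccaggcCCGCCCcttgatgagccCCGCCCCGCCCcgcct
The Cxcl13 window held the TATA box from 46 to 41 bases before the start, and neither the GC box nor the CCAAT box. The Ackr3 window held the TATA box from 8 to 3 bases, the GC box from 68 to 63 bases and the CCAAT box from 214 to 210 bases before the start. The Cxcl12 window held the GC box at 5 positions, 1 on the plus and 4 on the minus strand, of which 2 overlap by 1 base, and no TATA box. Its G and C content was 64.4%, against 54% for Ackr3, 42% for Cxcl13 and a median of 52.4% over 32851 mouse promoter windows of the same length. Of those windows 12.4% held the TATA box, 32.7% the GC box and 33.8% the CCAAT box, and 7.25% held the NF-kB consensus, which was in none of the windows shown. Of the 29 tested members 23 had an entry, in 26 windows, of which 8 held the TATA box, 6 the GC box, 11 the CCAAT box and 3 the NF-kB consensus.

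Cxcr5, the receptor for Cxcl13 on B cells, was below the filter, with 3, 5, 3 and 3 counts in CB-100 and 5, 1 and 5 in sham. The 10 B cell markers, among them Cd79a and Ms4a1, summed to 5.08 to 6.37 CPM in CB-100 and 4.01 to 4.33 CPM in sham. The sums did not overlap, with CB-100 above, while of the 3 tested B cell markers 1 had an estimate above 0 and 0 passed (log2 changes of -0.16 to 0.19, edgeR adjusted p of 0.79 to 0.88). The 10 T cell markers summed to 4.24 to 7.12 CPM in CB-100 and 3.85 to 9.06 CPM in sham, and the 10 macrophage markers to 117 to 278 and 140 to 218 CPM. Of a list of 6 mesothelial markers, genes of the lining of body cavities, the sum was lower in CB-100 (4.17 to 17.4 CPM) than in sham (18.4 to 34.4 CPM), without overlap. Within it Lrrn4 fell from 20.2 ± 11.8 CPM (SD, n = 3) to 4.53 ± 1.50 CPM (SD, n = 4), with a log2 change of -2.16 ± 0.41 SE, with adjusted p = 0.035 in edgeR. Krt19, the other of the 2 tested genes of the list, was at 0.364 to 14.2 CPM and gave a log2 change of -0.15. The more defining Msln, Upk3b and Wt1 were at or near 0 in every library, at most 0.183 CPM, so the sum does not rest on them. The part of these marker levels in the Cxcl13 result was not tested. The 5 lymph node markers in the table summed to 61.7 to 108 and 54.9 to 93.5 CPM, nearly all of it the less specific Enpp2, with Chst4 at 0 counts. No gene passed in the lists of plasma cells, NK cells, dendritic cells, mast cells, lymphatic endothelium, adipocytes or skeletal muscle, which does not make their levels alike. Plasma cell markers summed to 476, 40.9 and 43.9 CPM in sham replicates 1 to 3 and to 23.6 to 102 CPM in CB-100. Skeletal muscle markers summed to 239 to 1768 CPM in CB-100 and 677 to 1533 CPM in sham, with 1 of 9 estimates above 0. Of the 6 adipocyte markers 1 had an estimate above 0 (median log2 change -0.50).

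**Figure D2:**
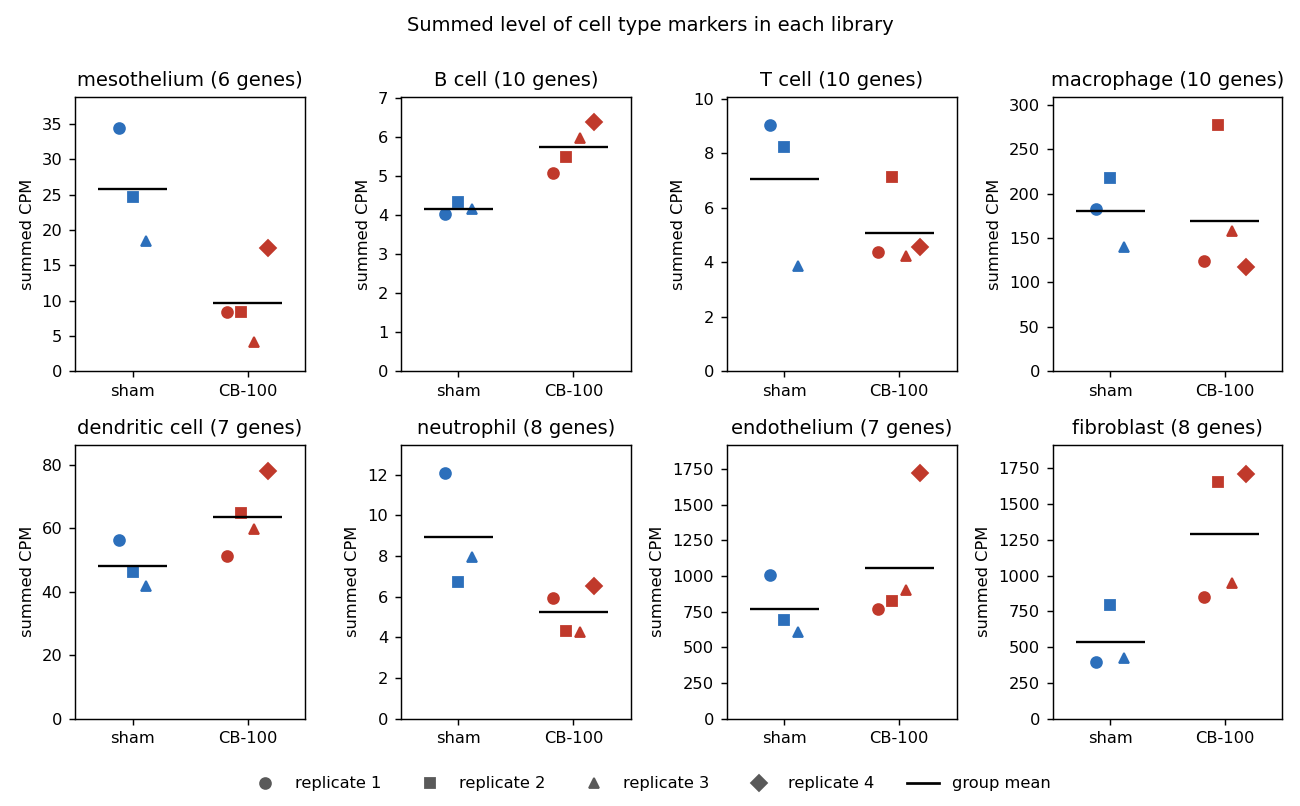
Summed CPM of 8 marker lists in each library (symbols are replicates, lines are group means). The sum of the mesothelial list (2 of 6 genes tested) is lower and that of the B cell list (3 of 10 tested) higher in each CB-100 library. The fibroblast sum is 848 to 1708 CPM in CB-100 against 393 to 791 CPM in sham.

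Over the 7 libraries, with group means subtracted, the 5 protein-coding genes whose log2 CPM followed Cxcl13 most closely were D16Ertd472e, Fhl3, Lrch3, Trdmt1 and B3gntl1 (Pearson's r of 0.982 to 0.997). Across 13350 genes 130 had an r above 0.9 with so few libraries, and none of the 5 passed the test between groups, with log2 changes of -1.50 to -0.09.

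In the Cxcl12 axis the ligand and the scavenging receptor had higher values in each CB-100 library, without passing the test in edgeR. Cxcl12, which retains leukocytes and progenitors in stromal niches through Cxcr4, was at 124, 115, 119 and 296 CPM in CB-100 replicates 1 to 4, and at 67.8, 86.1 and 56.5 CPM in sham replicates 1 to 3. The gene lies at chr6:117168535-117181367 on the plus strand of GRCm38. No sham library reached the lowest CB-100 library, and replicate 4 stood far above the other 3. Its log2 change was 1.22 (SE 0.37, edgeR adjusted p = 0.095), and 0.77 without CB-100 replicate 4 (edgeR adjusted p = 0.051). Ackr3, the atypical receptor that takes up and degrades Cxcl12, was at 45.9, 27.8, 44.3 and 127 CPM in CB-100 and at 11.7, 20.7 and 7.24 CPM in sham. Ackr3 lies at chr1:90203980-90216751 on the plus strand of the same build. These groups did not overlap either, and replicate 4 was again highest. The log2 change of Ackr3 was 2.23 (SE 0.59, edgeR adjusted p = 0.072), and 1.58 without CB-100 replicate 4 (edgeR adjusted p = 0.069). DESeq2 called both genes (adjusted p = 0.012 and 0.00053), and limma voom called Ackr3 (adjusted p = 0.031). Cxcr4, the signalling receptor, was at 4.87, 2.37, 1.65 and 6.70 CPM in CB-100 and at 5.26, 4.19 and 3.62 CPM in sham. Its groups overlapped throughout (log2 change -0.14 ± 0.44 SE, adjusted p = 0.87 in edgeR).

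The 8 fibroblast markers summed to 848, 1657, 946 and 1708 CPM in CB-100 and to 393, 791 and 424 CPM in sham, without overlap, and none was called. Of the 8, 7 had an estimate above 0 (52.7% of all tested genes), with a median log2 change of 0.53. The groups did not overlap for 4 (background 23.3%), and 4 had an unadjusted p under 0.05 in edgeR (background 23.9%). CB-100 replicate 4 was the highest library for these markers, for Cxcl12 and for Ackr3. CB-100 replicate 2 came next for the markers and was the lowest CB-100 library for both genes. The 7 endothelial markers summed to 769 to 1724 CPM in CB-100, highest in replicate 4, and to 605 to 1009 CPM in sham, with overlap. The part of these cells in the levels of Cxcl12 and Ackr3 was not tested.

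**Figure D3:**
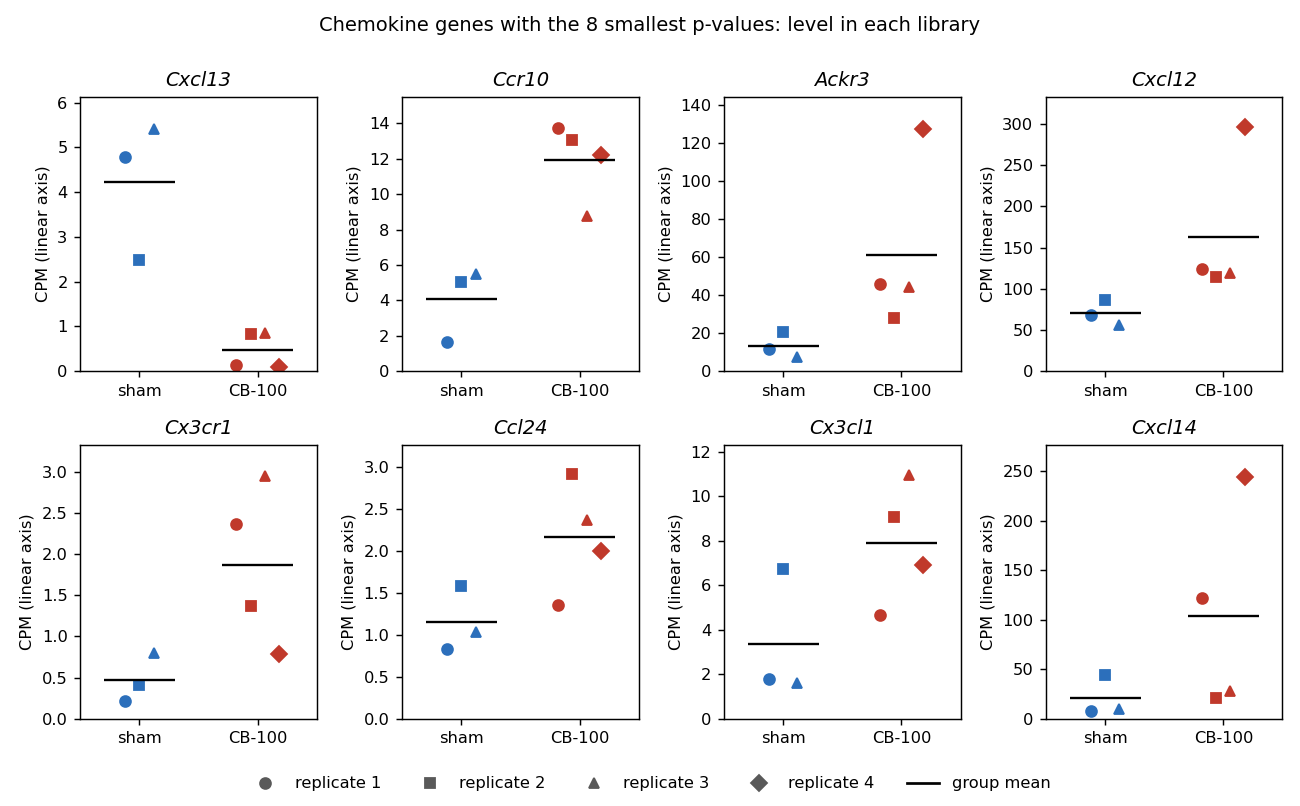
CPM of the 8 members with the smallest p in each library (linear axes from 0; symbols are replicates, lines are group means). Cxcl13, Ccr10, Ackr3 and Cxcl12 keep the groups apart, and CB-100 replicate 4 is highest for Ackr3, Cxcl12 and Cxcl14.

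Cxcl14, a chemokine made by epithelium and brown adipocytes, had the largest estimate above 0 and the widest spread. It was at 122, 20.9, 27.5 and 244 CPM in CB-100 and at 8.07, 43.7 and 9.92 CPM in sham. CB-100 replicates 2 and 3 lay below sham replicate 2, so the groups overlapped. The log2 change was 2.35 (SE 1.00, edgeR adjusted p = 0.20), ranging from 1.48 without CB-100 replicate 4 to 3.53 without sham replicate 2. Ucp1, the uncoupling protein of brown adipocytes, was at 2237, 449.8, 1098 and 1824 CPM in CB-100 and at 139.7, 875.0 and 46.1 CPM in sham. In both genes CB-100 replicates 1 and 4 were the highest libraries, and sham replicate 2 was the highest of sham. Of the 10 brown adipocyte markers, Ucp1 included, 5 had an estimate above 0, with a median log2 change of 0.04. The part of brown adipocyte content in the Cxcl14 level was not tested.

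The Ccr7 ligands and their scavenger did not pass the test. Ccl19, a ligand of Ccr7 that guides T cells and dendritic cells, was at 0.787, 0.731, 1.44 and 0.744 CPM in CB-100 and at 1.67, 1.24 and 1.27 CPM in sham. CB-100 replicate 3 fell within the sham range (log2 change -0.59 ± 0.37 SE, adjusted p = 0.36 in edgeR). Its counts are not whole in 7 libraries, so its level is uncertain. Ccl21a, the other Ccr7 ligand, was at 6.94, 4.93, 5.68 and 3.35 CPM in CB-100 and at 4.27, 5.15 and 2.44 CPM in sham (log2 change 0.40 ± 0.33 SE, adjusted p = 0.49 in edgeR). Ccl21 is present in near-identical copies, so reads can be divided between them. Its 7 identifiers together gave 5.53 ± 1.21 CPM among CB-100 mice (SD, n = 4) beside 4.51 ± 1.97 CPM among sham mice (SD, n = 3), with 90.9% of counts on 1 identifier. Ccr7 was below the filter, with 10, 1, 5 and 9 counts in CB-100 and 1, 7 and 6 in sham. Ackr4, which scavenges Ccl19, Ccl21 and Ccl25, was at 24.6, 10.8, 15.3 and 19.7 CPM in CB-100 and at 11.5, 15.9 and 17.3 CPM in sham. Its groups overlapped (log2 change 0.24 ± 0.27 SE, adjusted p = 0.62 in edgeR), and Acad11 overlaps it on the opposite strand, so its count is uncertain.

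Ccr10, the receptor for Ccl27 and Ccl28 on skin and mucosal lymphocytes, came closest to the threshold after Cxcl13. It was at 13.7, 13.1, 8.77 and 12.2 CPM in CB-100 and at 1.67, 5.02 and 5.50 CPM in sham, so that the groups did not overlap. The gene lies at chr11:101172997-101175443 on the minus strand of GRCm38. The mean of 11.95 ± 2.21 CPM (SD, n = 4) against 4.06 ± 2.09 CPM (SD, n = 3) gave a log2 change of 1.56 ± 0.38 SE, with adjusted p = 0.056 in edgeR. The adjusted p was 0.070 to 0.14 without each library in turn. It was 0.034 in edgeR without a filter on low counts, 0.0018 in DESeq2 and 0.045 in limma voom. Ccl27a was at 4.29, 1.74, 2.16 and 3.26 CPM in CB-100 and at 1.87, 1.79 and 2.16 CPM in sham. Its groups overlapped (log2 change 0.56 ± 0.35 SE, adjusted p = 0.35 in edgeR), and its count is uncertain, since Il11ra1 overlaps it on the opposite strand and near-identical copies exist. Ccl28 gave a log2 change of -0.46 ± 0.53 SE, with adjusted p = 0.63 in edgeR, from 1.72 ± 1.02 CPM among CB-100 mice (SD, n = 4) beside 2.32 ± 0.623 CPM among sham mice (SD, n = 3).

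Ccr9, the gut-homing receptor, was at 6.51, 3.20, 2.59 and 5.67 CPM in CB-100 and at 3.33, 1.79 and 2.73 CPM in sham. The groups overlapped (log2 change 0.78 ± 0.38 SE, adjusted p = 0.25 in edgeR), and Slc6a20a among other models overlaps it, so its count is uncertain. Ccl25, its ligand, had the smallest SE of the tested members (0.16, at a log2 change of -0.06), with 15.1 ± 2.01 CPM among CB-100 mice (SD, n = 4) beside 15.7 ± 1.82 CPM among sham mice (SD, n = 3). Elavl1 overlaps Ccl25 on the opposite strand, which leaves that level uncertain too.

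The CX3C pair, in which membrane-bound fractalkine (Cx3cl1) holds monocytes and macrophages that carry Cx3cr1, had higher means in CB-100. Cx3cr1 was at 2.36, 1.37, 2.95 and 0.791 CPM in CB-100 and at 0.208, 0.412 and 0.799 CPM in sham. The lowest CB-100 library, replicate 4, fell just below the highest sham library. The log2 change was 1.93 (SE 0.60, edgeR adjusted p = 0.096), and DESeq2 called it (adjusted p = 0.025). On unscaled library totals, which the filter uses, 1 sham library reached the filter level, against 3 in CB-100, so the gene was kept mainly through CB-100. A gene model, Gm33858, lies opposite Cx3cr1, so its count is uncertain. Cx3cl1 was at 4.65, 9.04, 10.9 and 6.88 CPM in CB-100 and at 1.77, 6.73 and 1.60 CPM in sham. Sham replicate 2 lay within the CB-100 range. The log2 change was 1.25 (SE 0.54, edgeR adjusted p = 0.20), and without sham replicate 2 it was 2.22 (edgeR adjusted p = 0.043).

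The Ccr2 ligands were below the filter. Ccl2, the main monocyte attractant, had 1, 13, 6 and 6 counts in CB-100 and 3 in each sham library. Ccl7 and Ccl12, which share its receptor, were low as well, and so was Ccl8. Ccr2 itself gave 4.66 ± 1.82 CPM among CB-100 mice (SD, n = 4) beside 3.22 ± 0.958 CPM among sham mice (SD, n = 3) (log2 change 0.53, edgeR adjusted p = 0.37). Ccl6 and Ccl9, macrophage ligands of Ccr1, gave log2 changes of -0.40 and 0.09, and CB-100 replicate 2 held the most Ccl9 (9.77 CPM, against 2.65 to 3.16 CPM in the other CB-100 libraries). That library also had the highest macrophage marker sum, 278 CPM. The part of macrophage content in the Ccl9 level was not tested. Ccl5, a T cell and macrophage attractant, gave a log2 change of 0.51 (SE 0.46), from 0.983 ± 0.330 CPM (SD, n = 4) among CB-100 mice, beside 0.689 ± 0.295 CPM (SD, n = 3) among sham mice.

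Interferon-induced ligands of Cxcr3, which draw T cells, did not pass. Cxcl9 was at 12.2, 12.4, 11.1 and 35.6 CPM in CB-100 and at 8.54, 13.3 and 12.3 CPM in sham. All but CB-100 replicate 4 lay together (log2 change 0.66 ± 0.43 SE, adjusted p = 0.38 in edgeR), and without that replicate the log2 change was 0.07. Cxcl10, which Art3 overlaps on the opposite strand, gave a log2 change of -0.10 (SE 0.47). Cxcl11 has the biotype polymorphic pseudogene in the table and so is no member. Its log2 change was 0.12 (SE 0.52), and its count is uncertain for a gene model on the opposite strand. Cxcr3 had 5 to 13 counts in CB-100 and 7 to 12 in sham, under the filter. Ifng, the gene of interferon gamma, had 0 counts in every library.

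Cxcl16, a membrane-bound chemokine that also acts as a scavenger receptor, was at 2.86, 5.39, 2.01 and 3.30 CPM in CB-100 and at 2.55, 2.34 and 1.69 CPM in sham. The groups overlapped (log2 change 0.62 ± 0.36 SE, adjusted p = 0.32 in edgeR), and Zmynd15 overlaps it on the opposite strand, leaving its count uncertain. Its receptor Cxcr6, found on resident T cells, gave a log2 change of 0.31 (SE 0.25), with 3.04 ± 0.430 CPM among CB-100 mice (SD, n = 4) beside 2.44 ± 0.359 CPM among sham mice (SD, n = 3).

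The eotaxins, which attract eosinophils through Ccr3, split in direction of estimate. Ccl11 was at 7.44, 10.2, 7.33 and 8.65 CPM in CB-100 and at 6.61, 11.9 and 9.92 CPM in sham, with full overlap (log2 change -0.17 ± 0.23 SE, adjusted p = 0.69 in edgeR). Ccl24 was at 1.36, 2.92, 2.37 and 2.00 CPM in CB-100 and at 0.833, 1.58 and 1.03 CPM in sham. CB-100 replicate 1 lay below sham replicate 2 (log2 change 0.91 ± 0.37 SE, adjusted p = 0.18 in edgeR). Ccr3 had 6 counts in all 7 libraries together.

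Of the neutrophil axis only the receptor Cxcr2 was tested. It was at 0.787, 0.913, 0.216 and 1.12 CPM in CB-100 and at 1.04, 1.99 and 1.32 CPM in sham. CB-100 replicate 4 reached into the sham range (log2 change -0.90 ± 0.50 SE, adjusted p = 0.30 in edgeR). The 8 neutrophil markers summed to 4.24 to 6.51 CPM in CB-100 and 6.73 to 12.1 CPM in sham, without overlap, and the part of this in Cxcr2 was not tested. Cxcl1, a ligand of Cxcr2, had 44 counts in CB-100 replicate 4 and 2 to 16 in the other libraries, and Cxcl5 had none.

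The remaining atypical receptors did not pass the test. Ackr1, which carries inflammatory chemokines across venules, was at 2.58, 3.47, 2.59 and 4.05 CPM in CB-100 and at 2.86, 2.61 and 2.26 CPM in sham (log2 change 0.30 ± 0.27 SE, adjusted p = 0.52 in edgeR). Cadm3 overlaps Ackr1 on the same strand, so its count is uncertain. Ackr2, a scavenger of inflammatory CC chemokines, gave 0.998 ± 0.463 CPM (SD, n = 4) and 1.49 ± 0.758 CPM (SD, n = 3), a log2 change of -0.58 (SE 0.50).

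In level per exon length, averaged over the 7 libraries, Cxcl14 led with 37.2 CPM per kilobase (4.42 to 134 over libraries), followed by Cxcl12 with 15.1 (6.91 to 36.2) and Ackr3 with 12.2 (2.16 to 38.1). These ranges overlapped, so their order does not hold beyond the spread. Ccl11 (8.20), Ccl21a (5.38), Cxcl9 (4.997) and Ccr10 (4.96) came next, in CPM per kilobase, again with overlapping ranges. Cx3cr1 (0.282) and Cxcr2 (0.346) were the lowest of the 28 tested members described here, on the same scale. Cxcl12, Cxcl14 and Ackr3 together held 66.8%, 52.0%, 61.1% and 81.4% of the members' summed CPM in CB-100 replicates 1 to 4. In sham replicates 1 to 3 they held 46.7%, 52.4% and 38.3%, so the groups overlapped. Without these 3 the members summed to 121 to 153 CPM in CB-100 and 99.9 to 137 CPM in sham.

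**Figure D4:**
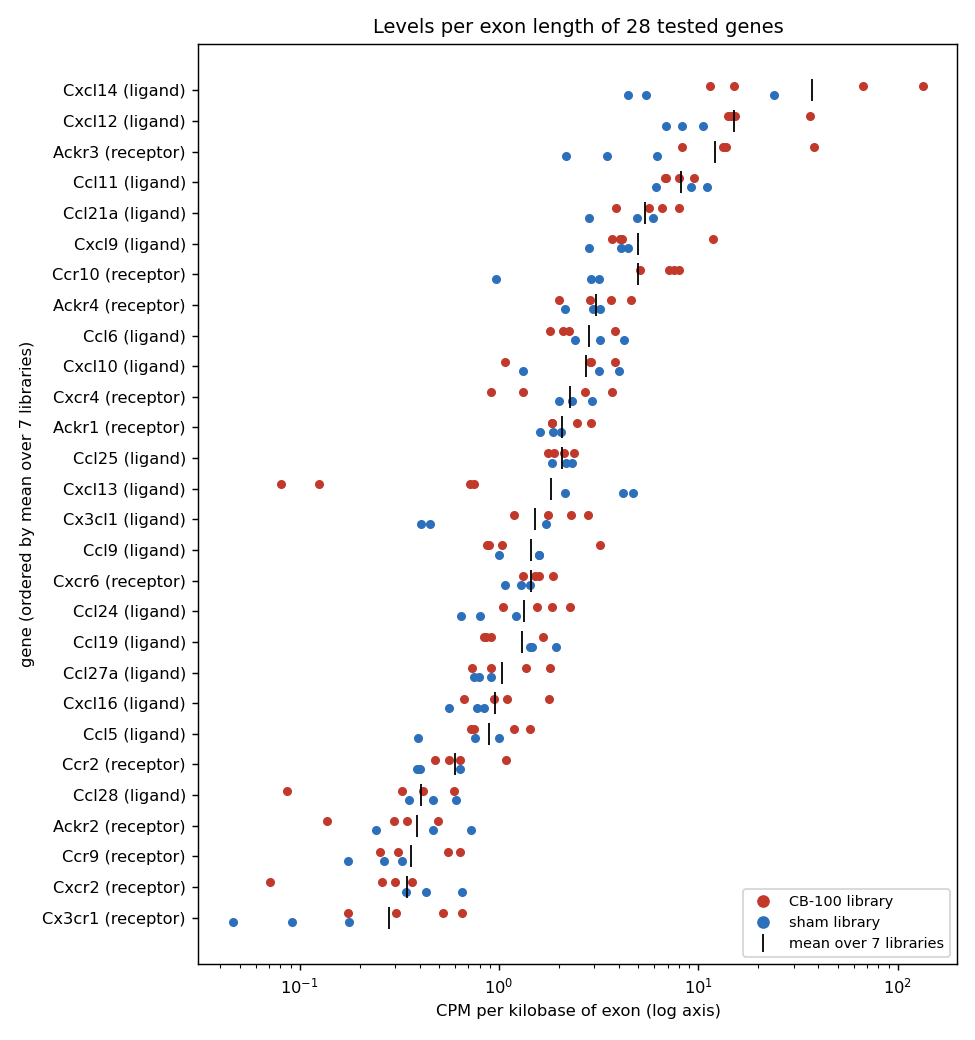
CPM per kilobase of exon of 28 of the 29 tested genes in each library (points, log axis), ordered by the mean over 7 libraries (black ticks). Cxcl14, Cxcl12 and Ackr3 are at the top, and Cxcl13 is the gene whose CB-100 libraries all lie below its sham libraries.

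The other 39 members were below the filter, with at most 83 counts over the 7 libraries (Cxcl1), and none of them kept the groups apart. Of these, 10 had 0 counts, 10 had 1 to 9 and 19 had 10 or more. Those at 0 were Ccl1, Ccl20, Ccl26, Cxcl5, Ccr1l1, Ccl21c, Ccl21d and further copies of Ccl19 and Ccl21b, and 0 of 117449923 counts allows a level of up to 0.0255 CPM. Ccl3 and Ccl4, made by activated macrophages, had 6 and 5 counts in all. Ccl27b and a copy of Ccl27a had 1 count each. Ccl17 and Ccl22, ligands of Ccr4, had 1 and 14, Cxcl2 and Cxcl3, neutrophil attractants, 16 and 2, and Xcl1, the lymphotactin gene, 4. Xcr1, the receptor on cross-presenting dendritic cells, had 8, 4, 1 and 10 counts in CB-100 and 0, 1 and 3 in sham. Ccr1, a receptor of monocytes and neutrophils, had 5 to 10 counts in CB-100 and 6 to 18 in sham. Cxcr1 and Ccr8 had 1 and 2 counts in all, and Ccr4, Ccr6, Cxcl15 and Cxcl17 had 14, 15, 18 and 19. Ccl7, Ccl12 and Ccl8 had 24, 25 and 74, and the further identifiers of Ccl21b, Ccl27a and Ccl21a that held counts had 11, 14 and 40.

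By axis, the 1 call stood among 7 tested genes of lymphoid homing. None stood among 7 of the monocyte axes, 3 of the Cxcr3 axis and 1 of the neutrophil axes. With 3.70% of all tested genes called, lists this short do not set the axes apart. Of 36 tested genes of chemokine receptor signalling, 2 rose and 1 fell, beside 1.42% and 2.28% of all tested genes. Their median log2 change was 0.29, beside 0.03 over all tested genes. Plcb2, a phospholipase C of leukocytes, rose from 0.705 ± 0.216 CPM (SD, n = 3) to 2.43 ± 0.723 CPM (SD, n = 4), with a log2 change of 1.78 ± 0.38 SE and an adjusted p of 0.041 in edgeR. Pik3r6, a regulatory subunit of phosphoinositide 3-kinase gamma, rose by 1.12 on a log2 scale (SE 0.21, adjusted p = 0.034 in edgeR). Gng5, a G protein gamma subunit, fell by 0.69 on a log2 scale (SE 0.15, adjusted p = 0.045 in edgeR), and its counts are not whole in 3 libraries, so it is uncertain. Among 9 tested chemokine-like genes outside the naming rule 1 was called, beside 3.70% of all tested genes. That gene was Mif, a cytokine that binds Cxcr2 and Cxcr4. It fell from 45.5 ± 7.15 CPM (SD, n = 3) to 19.6 ± 3.39 CPM (SD, n = 4), with a log2 change of -1.21 ± 0.18 SE and an adjusted p of 0.022 in edgeR, and its counts are not whole in 6 libraries, so it is uncertain. Cmklr1, the chemerin receptor, gave a log2 change of 0.91, with adjusted p = 0.11 in edgeR. The calls outside the members, here, for Lrrn4 above and for Sele, Ciita and Ifngr1 below, were not followed gene by gene with libraries left out. All genes called numbered 622 as reported, 8 to 610 without each library in turn and 0 in females alone, so these calls may not hold.

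In the lymphotoxin and noncanonical NF-kB list, whose pathway drives Cxcl13, Ccl19 and Ccl21 in lymphoid stroma, 0 of 13 passed in edgeR (median log2 change 0.31), and 3 had an unadjusted p under 0.05, beside 23.9% of all tested genes. Traf3 gave 0.76 (edgeR adjusted p = 0.074) and Tnfrsf1a 0.32. In the NF-kB inflammatory list 1 of 17 fell and 0 rose, beside 2.28% and 1.42% of all tested genes. That gene was Sele (E-selectin, which slows leukocytes on endothelium), which fell by 2.41 on a log2 scale (SE 0.49, adjusted p = 0.037 in edgeR). In the interferon gamma list 1 of 17 rose and 1 fell, beside 1.42% and 2.28% of all tested genes. The gene that rose was Ciita, the activator of MHC class II genes (log2 change 1.54, edgeR adjusted p = 0.035). Dexi overlaps Ciita on the opposite strand, so its count is uncertain. Ifngr1, a receptor subunit for interferon gamma, fell by 1.03 on a log2 scale (edgeR adjusted p = 0.036). In the list of chemokine proteolysis and presentation on glycosaminoglycans 0 of 18 passed in edgeR and 3 had an unadjusted p under 0.05 (again beside 23.9%), with Tpst1, a tyrosine sulfotransferase, at a log2 change of 0.65 and Adam17, a sheddase of Cx3cl1, at 0.59.

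**Figure D5:**
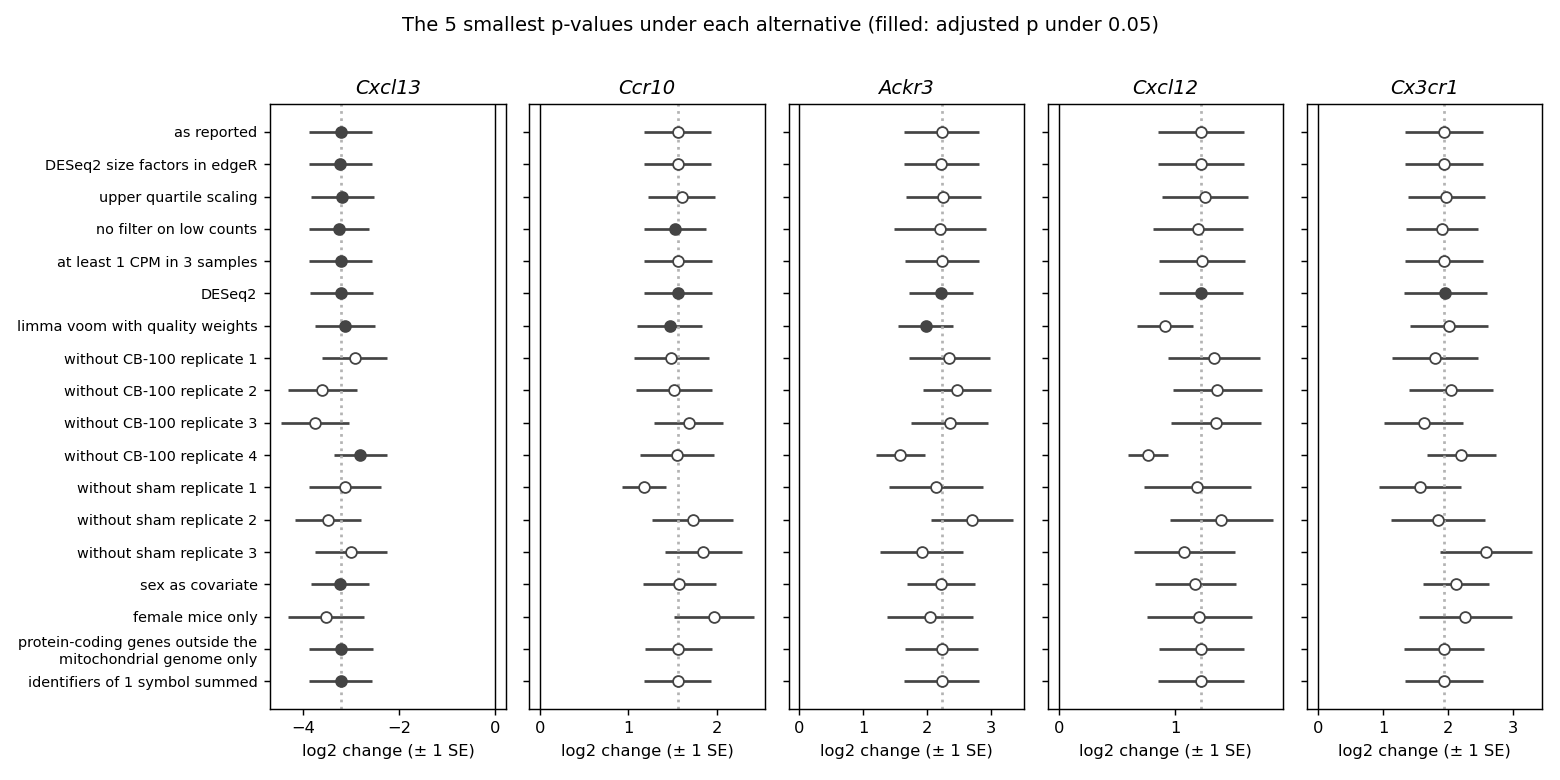
Log2 change with 1 SE of the 5 members with the smallest p, as reported and under 17 alternatives (filled points have an adjusted p under 0.05). Every estimate keeps its sign, Cxcl13 loses its call in 7 alternatives and the other 4 gain it in 1 to 3.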

How the data were processed

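Brown fat RNA of 7 mice was sequenced on a NovaSeq 6000. Per the labels' protocols, the aligner was STAR 2.7.9a and the reference came from Ensembl release 101. Subread, featureCounts 2.0.3, Salmon 1.5.2, edgeR and limma appear without roles per the submitters' processing notes. For library kit, strandedness and counting settings, the sources used here give nothing. The deposited values are expected counts per gene, not all whole, and were rounded. After 287 repeated identifiers were removed, 55487 genes remained, 99.5% of them in GENCODE M21 (GRCm38), the source of coordinates and exon lengths. Promoters are from RefSeq (GRCm38.p6). Genes were kept by filterByExpr (minimum count 10, here 0.674 CPM), scaled by TMM and tested with edgeR 4.0.16 (quasi-likelihood, robust, groups only) in R 4.3.3, with Benjamini-Hochberg adjustment over 16823 genes at 0.05. The biological coefficient of variation was 28.0%. Alternatives used DESeq2 1.42.0, limma 3.58.1, other scalings and filters, left-out libraries, sex, and gene subsets. Summing identifiers that share a symbol was chosen after seeing the data. On simulated data with 49 or 50 of 16689 genes at each change, 82% of those lowered and 72% of those raised by 2 on the log2 scale were recovered, against 26.5% and 28% at a change of 1. The simulation gave 113 calls, 9 of them false, against 622 calls in the data. Its changed genes were drawn from all levels, so the rates need not hold for the members. Named genes were the called members, the next 12 by p and the 5 ligands and 5 receptors with the highest level per length, with values in every library, and the other tested members by group. Of the tested members, 1 enters the counts but is not reported here. The members and lists were chosen with earlier results of these data known. Replicate numbers follow accession order.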

Additional observations from a re-analysis of the deposited data

Results flagged for a closer look

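In 4 of the 29 tested genes, 1 of the 4 CB-100 libraries stood far from the other 3 (Dixon's test at the 95% level, which chance passes in about 1 group in 20). Cxcl12 in CB-100 replicate 4 was at 296 CPM, with the nearest library at 124 CPM. Cxcl9 in the same library was at 35.6 CPM, with the nearest at 12.4 CPM. Ccl9 in CB-100 replicate 2 was at 9.77 CPM, with the nearest at 3.16 CPM. Ccl19 in CB-100 replicate 3 was at 1.44 CPM, with the nearest at 0.787 CPM. The 3 sham libraries are too few for this test.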

How the results depend on the processing

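Of 475 single-gene values under the alternatives, 448 kept their direction and their side of the threshold, 8 gained a call, 7 lost it and 12 changed sign. The genes called, 622 as reported, numbered 1968 in DESeq2, 1213 in limma voom, 238 with sex as a covariate, 0 in females alone and 8 to 610 without each library in turn. Members called higher, 0 as reported, numbered 1 without a filter (Ccr10), 4 in DESeq2, 2 in limma voom and 0 to 1 without each library. Members called lower, 1 as reported, numbered 0 in females alone and 0 to 1 without each library. The left-out and female sets also hold fewer mice, and the cause of these differences was not tested. The sign changed in limma voom for Ccl9 (-0.015), and in females for Cxcl10 (0.20). Without each library in turn the log2 change ran from -0.38 to 0.021 for Ccl11, -0.16 to 0.0093 for Ccl25, -0.55 to 0.11 for Cxcr4, -0.445 to 0.24 for Cxcl10 and -0.57 to 0.28 for Ccl9. The members' median log2 change stayed within 0.24 to 0.40. No paired analysis was possible because no mouse gave a sample to both groups by its code and replicate numbers only follow accession order. With 28.0% variation between mice, changes of 1 on the log2 scale were mostly missed in simulation, which was not set to the members' levels. Uncalled members are not shown to be equal.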
